A study of Mus musculus with 16 samples.

Results

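The cytosolic ribosomal protein genes encode the proteins of the 40S and 60S ribosomal subunits. They were chosen by symbol, as the names Rpl and Rps followed by a number, together with Rpsa, Rplp0, Rplp1, Rplp2, Rack1 and Fau. Pseudogenes and the ribosomal S6 kinases were left out. The rule found 80 genes of the 13430 in the table, and all 80 were tested. They encode 32 proteins of the 40S subunit, 45 of the 60S subunit and 3 of the 60S stalk. The rule itself uses symbols and no measured value. A further 11 annotated genes that match the rule are not analysed here, of which 5 are protein coding (Rpl3l, Rpl10l, Rpl39l, Rps12 and Rps27).

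RNA was sequenced from a kidney slice of each of 16 female C57BL/6 mice, aged 2 to 3 months. There were 4 groups of 4 mice: IRR(-/-) mice given 250 mM NaHCO3 at pH 8.5 to drink for 7 days, IRR(-/-) mice given water, wild-type mice given the same bicarbonate and wild-type mice given water. All were fasted for 12 h, and RNA came from a mid-kidney slice 3 mm thick. IRR, the product of Insrr, is a relative of the insulin receptor that alkaline fluid outside the cell activates. Which exons the knockout allele lacks is not stated in the sources used here, and the labels describe no restriction to a cell type.

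Ribosomal protein mRNAs are among the most abundant in any cell, and most of their protein products are needed in equal numbers for each ribosome. Many carry a 5′ terminal oligopyrimidine (TOP) tract, a cytidine at the first base followed by a run of pyrimidines, through which LARP1 and the kinase complex mTORC1 control their translation. In the kidney, the mTORC1 pathway responds to growth factors, amino acids and energy supply.

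Of the 80 genes, 60 had an entry in the promoter table from RefSeq (GRCm38.p6). A cytidine at the annotated start followed by 4 bases that are each C or T was present in 14 of these 60 genes (23.3%), against 312 of 10536 genes of the table with an entry (2.96%). The 6 letters CTTTCC lay within 15 bases on either side of the annotated start, on the strand of the gene, in 8 of the 60 (13.3%), against 170 of 10536 (1.61%). Both searches used the gene strand alone, and the second motif can overlap the first. The 8 stretches below run 40 bases before the annotated start to 25 bases from it. They belong to the 4 genes with the highest and the 4 with the lowest difference between IRR(-/-) and wild type on water among those with an entry, so that both directions can be seen beside their start sites. Capitals mark the annotated first base and the unbroken run of C or T that begins there, and only the first base where it begins none.
Rps28, chr17:33824538-33824602, minus strand: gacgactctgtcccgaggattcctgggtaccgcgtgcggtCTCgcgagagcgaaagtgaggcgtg
Rpl41, chr10:128549144-128549208, minus strand: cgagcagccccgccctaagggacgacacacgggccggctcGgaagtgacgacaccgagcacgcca
Rpl28, chr7:4792925-4792989, plus strand: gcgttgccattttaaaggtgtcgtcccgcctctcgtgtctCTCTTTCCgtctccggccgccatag
Rpl39, chrX:37085198-37085262, minus strand: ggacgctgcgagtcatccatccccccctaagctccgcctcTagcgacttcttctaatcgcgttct
Rpl35, chr2:39005107-39005171, minus strand: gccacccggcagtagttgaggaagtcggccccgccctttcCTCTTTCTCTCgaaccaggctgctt
Rps3a1, chr3:86142644-86142708, minus strand: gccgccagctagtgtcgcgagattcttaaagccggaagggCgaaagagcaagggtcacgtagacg
Rps24, chr14:24490638-24490702, plus strand: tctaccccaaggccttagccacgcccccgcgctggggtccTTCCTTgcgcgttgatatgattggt
Rps9, chr7:3704001-3704065, plus strand: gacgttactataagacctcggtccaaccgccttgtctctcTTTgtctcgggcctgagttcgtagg
Rpl28, which was higher in IRR(-/-) kidneys, and Rpl35, which was lower there, both begin with such a run at the annotated start. In Rps28, Rpl28, Rpl39, Rpl35, Rps24 and Rps9, genes of both directions, the run of C or T also reaches back before the annotated start. The search depends on the exact annotated base, so genes without the C and pyrimidine start may still carry a TOP tract. The medians below therefore do not compare genes with and without that tract. On water, the 14 genes with this start had a median log2 difference of 0.34 between IRR(-/-) and wild type. It was 0.44 for the 46 genes without this start. In wild type, the median log2 difference between bicarbonate and water was 0.31 in the 14 genes and 0.27 in the 46.

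The deposited values are RPKM, so the depth of the libraries is unknown and no counting error can be given. Insrr stood at 3.31 to 4.11 RPKM in the 8 IRR(-/-) libraries and at 4.20 to 6.73 RPKM in the 8 wild-type libraries, and on water it was lower in IRR(-/-) by a log2 difference of -0.69 ± 0.13 (SE, adjusted p = 0.0018). Kidney markers such as Umod and Slc12a3 were present in every group. The first principal component of all tested genes (25.4% of the variance) separated all 8 IRR(-/-) libraries from all 8 wild-type libraries. The 13 mitochondrially encoded genes held 82.6 to 84.9% of the summed RPKM in IRR(-/-) libraries and 69.6 to 74.2% in wild-type libraries. One wild-type bicarbonate library, replicate 3, was distant from all others on component 2, at -50.8 against -21.8 to 22.1 for the other 15. It also had the lowest Kap, a proximal tubule gene, at 742.5 RPKM. Some counts are given with and without it, for the genotype difference on bicarbonate, the wild-type response and the interaction. Most other values of that group are given with it alone. The labels give no batch, so any batch that followed genotype cannot be told apart from genotype.

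The ribosomal protein genes were among the most abundant mRNAs of these kidneys. By mean RPKM over 16 libraries, 73 of 80 lay above the 90th percentile of all genes in the table, and the median gene lay at the 97.45th percentile. RPKM is a level per length, so a comparison between genes depends on the lengths used, which are not known here. Over the 80 genes, the median of the group means was 212.7 RPKM in IRR(-/-) on bicarbonate, 217.9 in IRR(-/-) on water, 222.4 in wild type on bicarbonate and 179.5 in wild type on water.

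The 4 highest genes were Rps28, Rpl41, Rpl23a and Rpl26, at means of 793, 751, 722 and 540 RPKM over the 16 libraries. Rps28 is a small 40S protein near the exit of the mRNA channel, and Rpl23a lies at the exit of the nascent peptide tunnel. The 4 lowest were Rpl7l1 at 16.5, Rpl12 at 16.47, Rpl22l1 at 13.0 and Rps25 at 4.43 RPKM. Rpl7l1 and Rpl22l1 are paralogs of Rpl7 and Rpl22, whereas Rpl12 and Rps25 encode single standard proteins of the 60S and 40S subunits. The products of Rps25 and Rps28 stand in equal numbers in the ribosome, and their mRNAs stood at the opposite ends of this order. The sources used here do not say how reads shared with copies were treated. In the GENCODE M21 annotation 49 of the 80 genes had at least 1 other gene with 95% identity over 50% of the transcript, up to 37 for Rpl7a, and 31 had none. Values of genes with such copies are therefore uncertain. The cover was taken over the whole principal transcript, so a copy much shorter than that transcript could not count. Among genes without a copy, this transcript was 1613 nt in Rps24, with 399 nt coding, and 1280 nt in Rps25, with 375 nt coding. Having none therefore does not show that no reads were shared. Rps25 had none, Rpl12 had 1, Rps28 had 1 and Rpl41 had 1, against 20 for Rpl23a and 6 for Rpl26.

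Across the 80 genes, the log2 levels correlated between IRR(-/-) and wild type with a Pearson r of 0.86 on water and 0.88 on bicarbonate. Between bicarbonate and water within a genotype, r was 0.998 in IRR(-/-) and 0.996 in wild type. These values describe genes that share libraries, and carry no test. The median coefficient of variation within a group was 7.25% in IRR(-/-) on bicarbonate, 8.75% in IRR(-/-) on water, 15.4% in wild type on bicarbonate and 8.64% in wild type on water.

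On water, most ribosomal protein genes were higher in IRR(-/-) kidneys, and a few, among them Rpl35, Rps3a1 and Rps24, were lower. In IRR(-/-) against wild type on water, 44 of 80 were higher, 11 were lower and 25 did not pass an adjusted p of 0.05. That is 68.8% called, where 21.9% of all 12943 genes tested were called (10.1% higher and 11.8% lower). The lower count was near its share over all genes, and the higher count was above it. The difference was positive for 63 of 80, against 44.7% of all genes. The median log2 difference was 0.45 over the 80 genes and -0.05 over all genes. All 4 IRR(-/-) libraries lay above all 4 wild-type libraries for 45 of the 80 genes, where this held for 10.8% of all genes, and below them for 12, where it held for 13% of all genes. In bulk tissue, a change in the share of a cell type and a change of RNA per cell cannot be told apart. After a smooth trend on transcript length and GC content was taken out of each library, 34 were higher, 14 were lower and the median was 0.13. On this scale Rpl26 and Rplp1 turned direction, to -0.01 (adjusted p = 0.958) and -0.26 (adjusted p = 0.0207). With a trend on coding length and GC removed in its place, 40 were higher and 10 were lower.

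**Figure D1:**
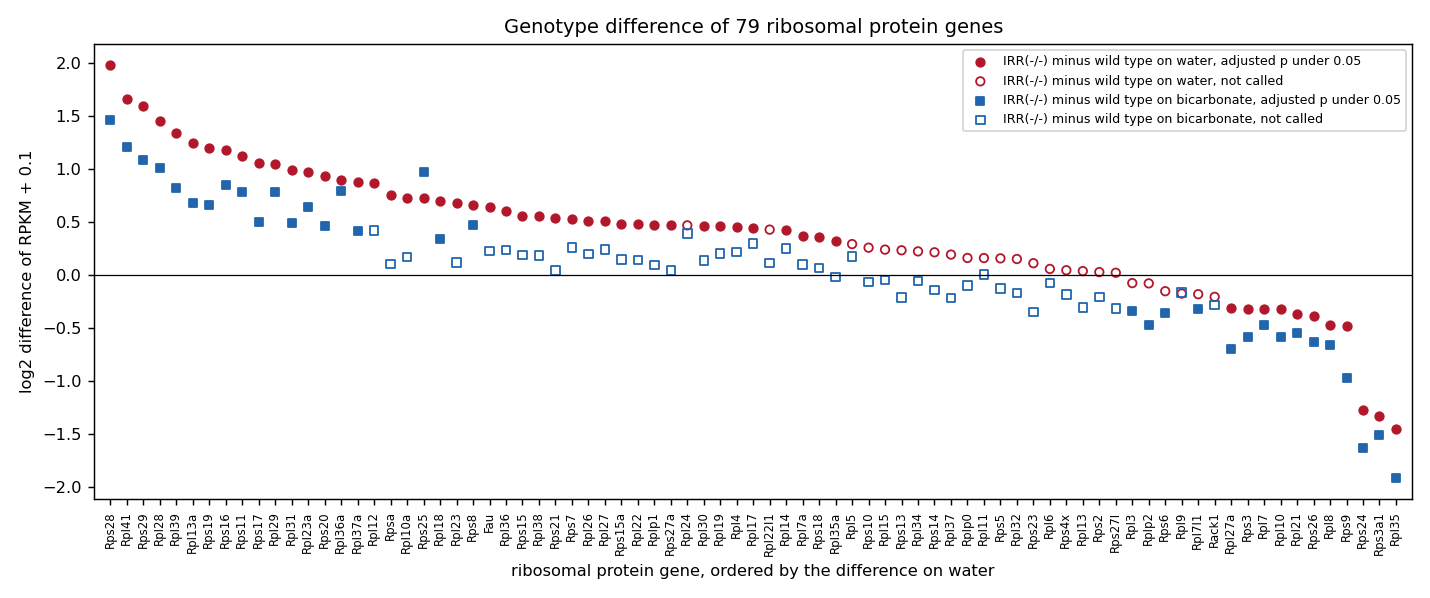
Log2 difference of RPKM + 0.1 (vertical axis) between IRR(-/-) and wild type for 79 of the 80 genes, ordered by the difference on water, as red circles on water and blue squares on bicarbonate; filled points passed an adjusted p of 0.05. The left end holds Rps28, Rpl41 and Rps29, the right end Rpl35, Rps3a1 and Rps24, and 19 of the genes plotted are filled above 0 on both drinks. Once the length and GC trend is removed, Rpl26 and Rplp1 lie below 0 on water.

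On water, Rps28 had 1237, 1097, 1113 and 1382 RPKM in IRR(-/-), against 322, 312, 265 and 322 RPKM in wild type. No library of one group overlapped the other, and the log2 difference was 1.98 ± 0.12 (adjusted p = 6.57e-08). Rpl41 encodes the shortest ribosomal protein, with a coding sequence of 75 nt. It had 1166, 996, 1069 and 1188 RPKM in IRR(-/-) on water, against 396, 311, 316 and 378 RPKM in wild type on water, a log2 difference of 1.66 ± 0.12 (adjusted p = 2.67e-07). Its difference was 1.19 once the length and GC trend was removed and 0.53 with a trend on coding length and GC removed, and it passed the test in both. Rps29, a zinc-binding protein of the 40S head with a coding sequence of 168 nt, had 795, 694, 673 and 719 RPKM in IRR(-/-) on water, against 285, 210, 217 and 251 RPKM in wild type on water. Its log2 difference was 1.59 ± 0.10 (adjusted p = 1.13e-07), and 0.82 once the length and GC trend was removed. The groups were separate for both genes.

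On water Rpl28, a 60S protein, averaged 269 ± 22.3 RPKM in IRR(-/-) and 98.4 ± 8.50 RPKM in wild type (SD, n = 4 each). The log2 difference was 1.45. Rpl39, which lines the nascent peptide tunnel, averaged 118 ± 16.2 RPKM in IRR(-/-) and 46.7 ± 7.08 RPKM in wild type on water (SD, n = 4 each), and its log2 difference was 1.34, against 0.84 once the length and GC trend was removed and 0.71 with a trend on coding length and GC removed. In all, 12 genes rose by more than 1 on the log2 scale on water and 3 fell by more than 1.

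Rpl35, a 60S protein at the tunnel exit, went the other way. It had 101, 86.2, 101 and 108 RPKM in IRR(-/-) on water, against 314, 256, 245 and 273 RPKM in wild type on water. Every IRR(-/-) library lay below every wild-type library, and the log2 difference was -1.46 ± 0.15 (adjusted p = 8.45e-06). Rps3a1, a 40S protein near the mRNA exit, had 181, 149, 135 and 178 RPKM in IRR(-/-) on water, against 417, 377, 401 and 417 RPKM in wild type on water. The groups did not overlap, with a log2 difference of -1.33 ± 0.14 (adjusted p = 8.94e-06). Rps3a1 has 6 near-identical copies in the annotation. Rps24, a 40S protein, had 68.1, 86.5, 71.3 and 54.5 RPKM in IRR(-/-) on water, against 141, 202, 136 and 204 RPKM in wild type on water. Its log2 difference was -1.28 ± 0.19 (adjusted p = 0.000196), with no overlap. Rps9, Rpl8 and Rps26 were also lower, by log2 differences of -0.48, -0.47 and -0.39 (-0.61 for Rps26 once the length and GC trend was removed). Rpl8 lies near the peptidyl transferase centre, and Rps26 near the mRNA exit. The call of Rps26 was lost without wild-type water replicate 1 (adjusted p = 0.0506) and without IRR(-/-) water replicate 3 (adjusted p = 0.0591).

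**Figure D2:**
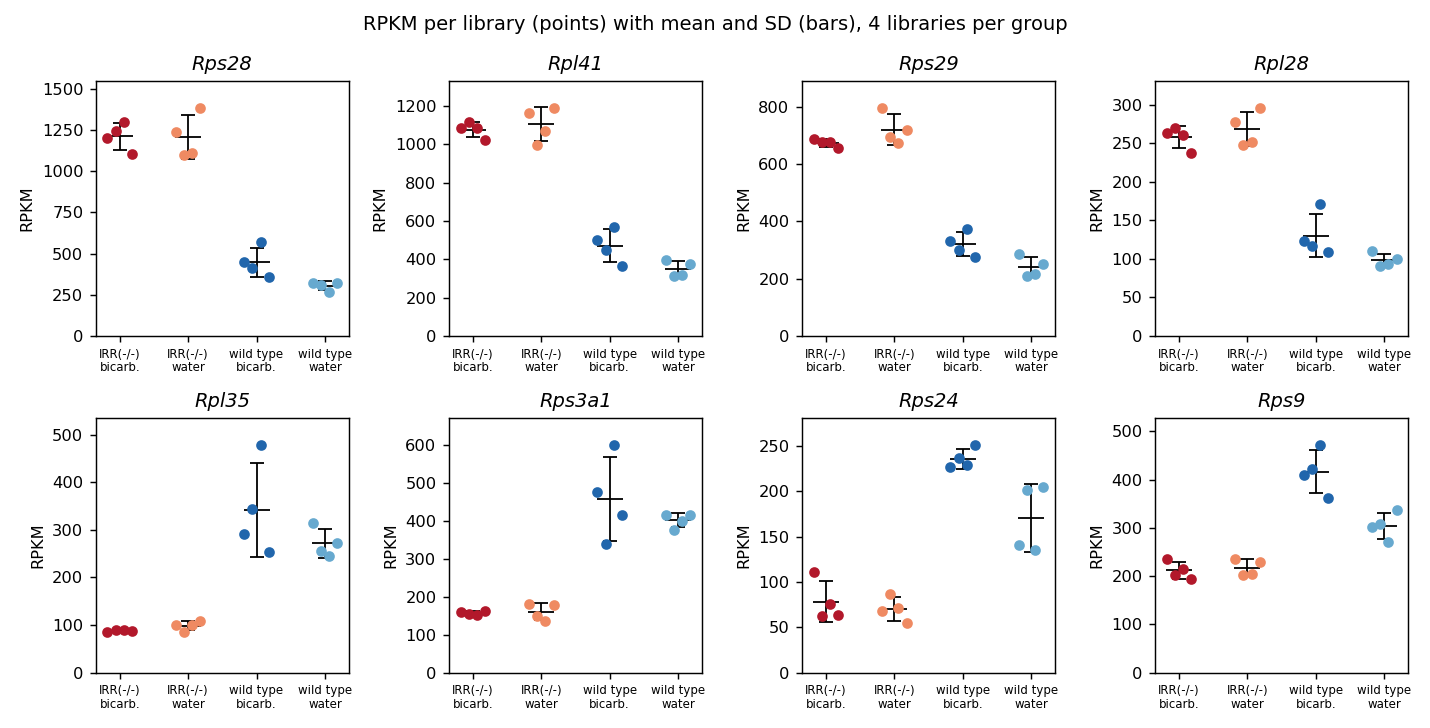
RPKM of 8 ribosomal protein genes in each of the 16 libraries (points) with the mean and SD of the 4 libraries per group (bars), IRR(-/-) in red and wild type in blue. Rps28, Rpl41, Rps29 and Rpl28 are higher in every IRR(-/-) library than in any wild-type library, and Rpl35, Rps3a1, Rps24 and Rps9 are lower.

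On bicarbonate the same ends of the family stood apart, with fewer genes higher. In IRR(-/-) against wild type on bicarbonate, 20 of 80 were higher, 15 were lower and 45 did not pass. That is 43.8% called, against 18.4% of all genes tested (9.03% higher and 9.36% lower). The difference was positive for 47 of 80, against 48.1% of all genes, and its median was 0.11 over the 80 genes and -0.02 over all genes. All 4 IRR(-/-) libraries lay above all wild-type libraries for 18 genes (11% of all genes) and below them for 14 (11.8% of all genes). Once the length and GC trend was removed, 20 were higher and 24 were lower, and the median was 0.01. Without wild-type bicarbonate replicate 3, 30 were higher and 13 were lower, and the median was 0.19. The median was 0.03 without wild-type bicarbonate replicate 4, and 0.07 without wild-type bicarbonate replicate 2 or IRR(-/-) bicarbonate replicate 1.

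The comparisons on the 2 drinks share no library. Of the 44 genes higher on water, 20 were also higher on bicarbonate (45.5% of the first list and 100% of the second). All 11 genes lower on water were also lower on bicarbonate, which is 73.3% of the 15 lower there. No gene was higher on one drink and lower on the other, and 21 were called on neither. The 4 genes called lower on bicarbonate and not on water were Rplp2, Rps6, Rpl3 and Rpl7l1, of which Rps6 and Rpl3 are named after their values were seen.

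On bicarbonate, Rps28 averaged 1213 ± 81.5 RPKM in IRR(-/-) and 447 ± 89.1 RPKM in wild type, a log2 difference of 1.46. Rpl41 averaged 1076 ± 38.8 RPKM in IRR(-/-) and 472 ± 85.9 RPKM in wild type, a log2 difference of 1.21. Rps29 averaged 675 ± 13.6 RPKM in IRR(-/-) and 321 ± 42.4 RPKM in wild type, a log2 difference of 1.08 (SD, n = 4 in each group). Once the length and GC trend was removed, that of Rps29 was 0.62, and with a trend on coding length and GC removed, that of Rpl41 was 0.50. The adjusted p of these 3 was at most 8.17e-06, that of Rpl41. At the other end, Rpl35 averaged 87.8 ± 1.52 RPKM in IRR(-/-) and 341 ± 98.4 RPKM in wild type, a log2 difference of -1.92 (adjusted p = 9.56e-07). Rps24 averaged 78.3 ± 22.6 RPKM in IRR(-/-) and 236 ± 10.9 RPKM in wild type, a log2 difference of -1.63 (adjusted p = 3.71e-05). Rps3a1 averaged 157 ± 4.26 RPKM in IRR(-/-) and 458 ± 111 RPKM in wild type, a log2 difference of -1.51 (adjusted p = 4.21e-06). Rpl27a, a 60S protein, averaged 143 ± 9.25 RPKM in IRR(-/-) and 232 ± 26.4 RPKM in wild type, a log2 difference of -0.70 (adjusted p = 0.000148). On water its difference was -0.31 (adjusted p = 0.0273), a call lost after median-of-ratios scaling (adjusted p = 0.0517), without wild-type water replicate 1 (0.0816) and without IRR(-/-) water replicate 2 (0.0689) or 3 (0.0704).

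Rps25, the lowest of the family, had 5.29, 5.69, 5.64 and 6.39 RPKM in IRR(-/-) on bicarbonate, against 2.48, 3.42, 2.52 and 3.27 RPKM in wild type on bicarbonate. For water, the mean was 5.61 ± 0.33 RPKM in IRR(-/-) and 3.45 ± 0.88 RPKM in wild type (SD, n = 4 each). It was higher in IRR(-/-) on both drinks, by 0.97 and 0.72 on the log2 scale (adjusted p = 0.00104 and 0.00608). Its call on water was lost with a trend on coding length and GC content removed (adjusted p = 0.0532).

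Both subunits held genes of both directions, where 10.1% of all genes were higher and 11.8% lower on water, and 9.03% and 9.36% on bicarbonate. On water 17 of 32 genes of the 40S subunit were higher and 5 lower, with a median log2 difference of 0.41, and 26 of 45 genes of the 60S subunit were higher and 6 lower, with a median of 0.45. On bicarbonate 9 of 32 and 11 of 45 were higher, and 6 and 8 were lower. By near-identical copies, on water 28 of 49 with a copy were higher and 5 lower, and 16 of 31 without a copy were higher and 6 lower. The medians were 0.45 in both. The class without a copy holds genes with a long principal transcript, for which a short copy could not count. In each class the lower count on water was closer to the share over all genes than the higher count was. It was above that share for the 6 of 31 without a copy. No difference between these classes was tested.

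The stalk proteins bind the translation factors. Rplp0 averaged 411 ± 42.2 RPKM in IRR(-/-) and 367 ± 15.8 RPKM in wild type on water (SD, n = 4 each), and did not pass (adjusted p = 0.210). Rplp1 averaged 514 ± 57.3 RPKM in IRR(-/-) and 370 ± 30.0 RPKM in wild type on water, a log2 difference of 0.47 (adjusted p = 0.00435) that turned direction without the length and GC trend, as given above. Rplp2 did not pass on water (log2 difference -0.08, adjusted p = 0.736). On bicarbonate Rplp2 was lower in IRR(-/-), by -0.48 (adjusted p = 0.03), a call lost without wild-type bicarbonate replicate 1 or 3 and without IRR(-/-) bicarbonate replicate 2, 3 or 4 (adjusted p = 0.0545 to 0.0962). Differences among the 3 stalk genes were not tested.

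Among proteins with roles outside the ribosome, Rpsa, the 40S protein also known as the laminin receptor precursor, averaged 36.1 ± 3.62 RPKM in IRR(-/-) and 21.5 ± 4.16 RPKM in wild type on water, a log2 difference of 0.76 (adjusted p = 0.000783). On bicarbonate it averaged 32.9 ± 4.08 RPKM in IRR(-/-) and 30.7 ± 4.09 RPKM in wild type, a difference that did not pass (adjusted p = 0.635). Fau, which encodes a ubiquitin-like protein fused to a 40S protein, was higher in IRR(-/-) on water by 0.64 (adjusted p = 0.0110), a call lost without the length and GC trend (0.22, adjusted p = 0.239). Rack1, a signalling scaffold on the 40S head, averaged 170 ± 24.5 RPKM in IRR(-/-) and 195 ± 10.7 RPKM in wild type on water, and did not pass on either drink (adjusted p = 0.239 and 0.114).

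Of the paralogs in the table, Rpl7l1 and Rpl22l1 were far below their partners in RPKM. Rpl22 averaged 186 ± 13.3 RPKM in IRR(-/-) and 135 ± 19.6 RPKM in wild type on water, a log2 difference of 0.48 (adjusted p = 0.00325). Its paralog Rpl22l1 had 52.2, 7.48, 12.3 and 8.15 RPKM in IRR(-/-) on water, against 9.41, 9.62, 12.3 and 10.8 RPKM in wild type on water. The value of 52.2 stood alone, the groups otherwise overlapped, and the gene did not pass (adjusted p = 0.544). Rpl7 was lower in IRR(-/-) on water by -0.32 (adjusted p = 0.00737, and 0.0966 with a trend on coding length and GC removed) and on bicarbonate by -0.47 (adjusted p = 0.000659). Rpl7l1 averaged 15.4 ± 0.85 RPKM in IRR(-/-) and 17.5 ± 0.97 RPKM in wild type on water, and did not pass (adjusted p = 0.180). On bicarbonate Rpl7l1 was lower in IRR(-/-) by -0.32 (adjusted p = 0.0238), a call lost without wild-type bicarbonate replicate 1 or 2 and without IRR(-/-) bicarbonate replicate 3 or 4 (adjusted p = 0.0590 to 0.0808). Rps27l, a paralog of Rps27, averaged 93.0 ± 13.5 RPKM in IRR(-/-) and 91.2 ± 6.35 RPKM in wild type on water (adjusted p = 0.925). Whether a paralog and its partner differed in their response was not tested.

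Ribosomal protein mRNAs are short, and length went with the genotype difference. The median longest transcript of the 80 genes was 1100 nt, against 3377 nt over all genes tested, and the median coding sequence was 462 nt, against 1371 nt. On water, the 9 ribosomal protein genes with a coding sequence of up to 300 nt had a median log2 difference of 0.88, against 0.30 for the other 285 genes of that length. For 301 to 450 nt the medians were 0.49 over 28 ribosomal protein genes and 0.12 over 611 other genes, and for 451 to 600 nt they were 0.46 over 19 and 0.01 over 757. From 601 to 900 nt the 20 ribosomal protein genes had a median of 0.05, with 6 higher and 5 lower, and the 1793 other genes had -0.03. On bicarbonate the medians in the same order of length were 0.42, 0.14, 0.20 and -0.16 for ribosomal protein genes, and 0.19, 0.08, -0.02 and -0.04 for other genes. Spearman's rho with coding length over the 80 genes was -0.39 on water and -0.31 on bicarbonate, as a description of genes that share libraries. With the longest transcript in place of coding length it was -0.25 on water. By longest transcript, the 5 ribosomal protein genes of up to 500 nt had a median of 0.55 on water, below the 0.83 of 29 other genes, and of 0.18 on bicarbonate, below 0.52. For over 500 and up to 1000 nt the medians on water were 0.47 over 29 ribosomal protein genes and 0.34 over 437 other genes. For over 1000 and up to 2000 nt they were 0.37 over 31 and -0.02 over 2092. For over 2000 and up to 4000 nt they were 0.39 over 12 and -0.07 over 5421. Over 4000 nt they were -0.21 over 3 and -0.06 over 4884. The direction of the gap to other genes of like length in the shortest bin thus depended on which length was used. The sources used here do not give the length that the authors used for RPKM, and the part of length in the difference was not tested beyond the trend removal above.

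**Figure D3:**
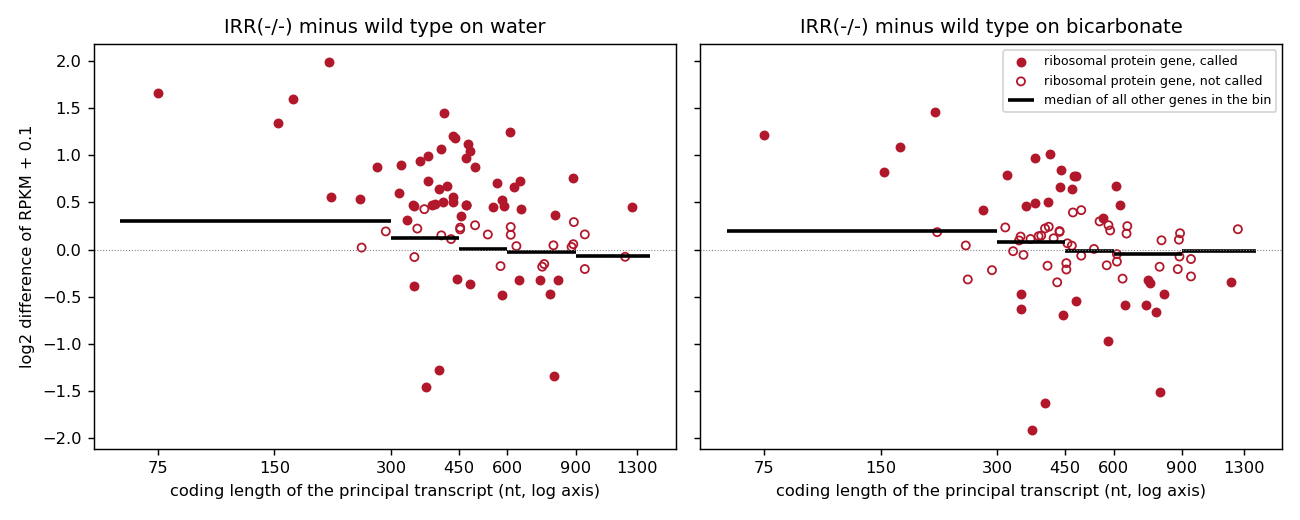
Log2 difference of RPKM + 0.1 between IRR(-/-) and wild type on water (left) and bicarbonate (right) against the coding length of the principal transcript in nt on a log axis; each point is 1 of 79 ribosomal protein genes, filled where it passed an adjusted p of 0.05, and black lines are medians of all other genes within a length bin. On water the genes of up to 300 nt have a median of 0.88, above the 0.30 of other genes, and those at 601 to 900 nt have a median of 0.05.

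In wild type nearly all of the family had slightly higher means on bicarbonate than on water, and no single gene passed the test. In wild type on bicarbonate against wild type on water, 0 of 80 genes passed in limma, where 0.139% of all genes did (0.0386% higher and 0.1% lower). At an unadjusted p under 0.05, 50 of 80 were higher and 0 were lower, against 5.55% higher and 6.42% lower of all genes. The log2 difference was positive for 78 of 80, against 48.6% of all genes, and the 2 exceptions were Rpl22l1 and Rps25. The median was 0.28 over the 80 genes, a 1.22-fold difference, and -0.01 over all genes. All 4 bicarbonate libraries lay above all 4 water libraries for 10 genes, where this held for 2.54% of all genes, and below them for 0 (3.31% of all genes). Without wild-type bicarbonate replicate 3 the count at an unadjusted p under 0.05 was 32 and the median 0.19. Without wild-type bicarbonate replicate 4 the test called 8 genes higher, and after quantile normalization 4.

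Rps9 had the lowest adjusted p of the family in this comparison. Its wild-type values were 409, 422, 472 and 362 RPKM on bicarbonate, against 301, 308, 271 and 336 RPKM on water. The groups did not overlap, and the log2 difference was 0.45 ± 0.09 (adjusted p = 0.0610). For Rps28 the values were 449, 410, 568 and 359 RPKM on bicarbonate, against 322, 312, 265 and 322 RPKM on water, all in wild type. It had the highest log2 difference, 0.53 ± 0.12 (adjusted p = 0.0851), again with no overlap. Rps24 in wild type had 227, 237, 229 and 251 RPKM on bicarbonate, against 141, 202, 136 and 204 RPKM on water (log2 difference 0.49 ± 0.19, adjusted p = 0.297). Rps28 and Rps24, which lay at opposite ends of the genotype order, thus both had higher means on bicarbonate.

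The level of the family in single libraries showed how far the groups were apart. For each library, the median over the 80 genes of the log2 level minus the mean of that gene over all libraries was taken. It was -0.03 to 0.20 in IRR(-/-) on bicarbonate, 0.06 to 0.24 in IRR(-/-) on water, -0.17 to 0.26 in wild type on bicarbonate and -0.37 to -0.09 in wild type on water. The 3 lowest libraries were all wild type on water, and the wild-type bicarbonate libraries spread over most of the range of the other 3 groups. Replicate 3 of that group was the highest of all 16 at 0.26, and replicate 4 was at -0.17, within the range of the water libraries. Summed RPKM of the 80 genes was 19423 to 22243 in IRR(-/-) on bicarbonate, 20130 to 22996 in IRR(-/-) on water, 16545 to 22853 in wild type on bicarbonate and 14793 to 17018 in wild type on water.

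**Figure D4:**
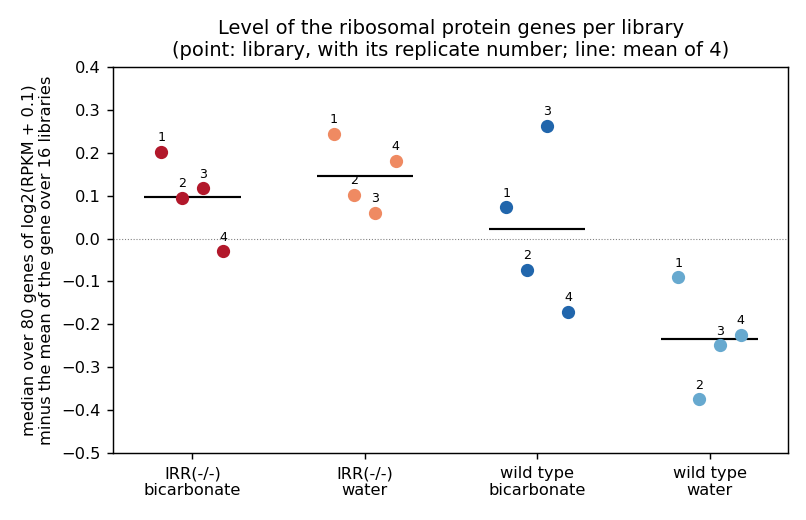
Median over the 80 genes of log2(RPKM + 0.1) minus the mean of each gene over the 16 libraries, 1 point per library with its replicate number and a line at the mean of 4. IRR(-/-) libraries lie between -0.03 and 0.24, wild-type bicarbonate libraries between -0.17 and 0.26, and wild-type water libraries between -0.37 and -0.09.

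No change of the family with bicarbonate was detected in IRR(-/-) kidneys. In IRR(-/-) on bicarbonate against IRR(-/-) on water, 0 of 80 genes passed in limma (0.0232% of all genes, 0.00773% higher and 0.0155% lower), and at an unadjusted p under 0.05 the count was 0 as well, against 7.99% of all genes (3.96% higher and 4.03% lower). The log2 difference was positive for 22 and negative for 58, against 53.2% positive over all genes. The median was -0.05, and its sign turned after quantile normalization, to 0.03, and without the length and GC trend, to 0.01. The genes lay between -0.36, for Rpl22l1, and 0.21. Rps9 had 236, 203, 214 and 194 RPKM in IRR(-/-) on bicarbonate, against 235, 202, 204 and 229 RPKM in IRR(-/-) on water, and these libraries overlapped throughout.

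The difference of the responses was tested as the interaction, the response of IRR(-/-) minus that of wild type. No gene of the family passed (0 of 80, with 0.0155% of all genes called). At an unadjusted p under 0.05, 40 of 80 genes had a more negative response in IRR(-/-), against 3.99% of all genes, and 0 a more positive one, against 4.2% (8.19% in either direction). The interaction was negative for 78 of 80 and positive for 2, against 53.4% positive over all genes, and its median was -0.33 over the 80 genes (-0.20 without the length and GC trend) and 0.02 over all genes. The count of 40 was 26 without wild-type water replicate 2, 26 without wild-type bicarbonate replicate 3, 25 without IRR(-/-) bicarbonate replicate 4 and 21 without the length and GC trend. The wild-type water libraries enter the genotype difference on water, the wild-type response and the interaction alike, so these 3 are not independent.

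The 3 genes with the smallest p for the interaction were Rps9, Rps29 and Rpsa, at unadjusted limma p-values of 0.00175, 0.00297 and 0.00299 and an adjusted p of 0.462 each. Rps9 had a log2 response of -0.04 in IRR(-/-) and 0.45 in wild type, an interaction of -0.49 ± 0.13. Rps29 had a response of -0.09 in IRR(-/-) and 0.42 in wild type, an interaction of -0.51 ± 0.14 (-0.20 without the length and GC trend). Rpsa had a response of -0.14 in IRR(-/-) and 0.52 in wild type, an interaction of -0.65 ± 0.18. Genes with short coding sequences had the more negative interactions, with a median of -0.46 for the 9 up to 300 nt and -0.23 for the 20 of 601 to 900 nt. Over other genes these medians were -0.13 and -0.03. By longest transcript this order was not seen. From the shortest bin to the longest, the medians of the ribosomal protein genes were -0.38, -0.33, -0.28, -0.34 and -0.33. Spearman's rho of the interaction over the 80 genes was 0.50 with coding length and 0.15 with the longest transcript.

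**Figure D5:**
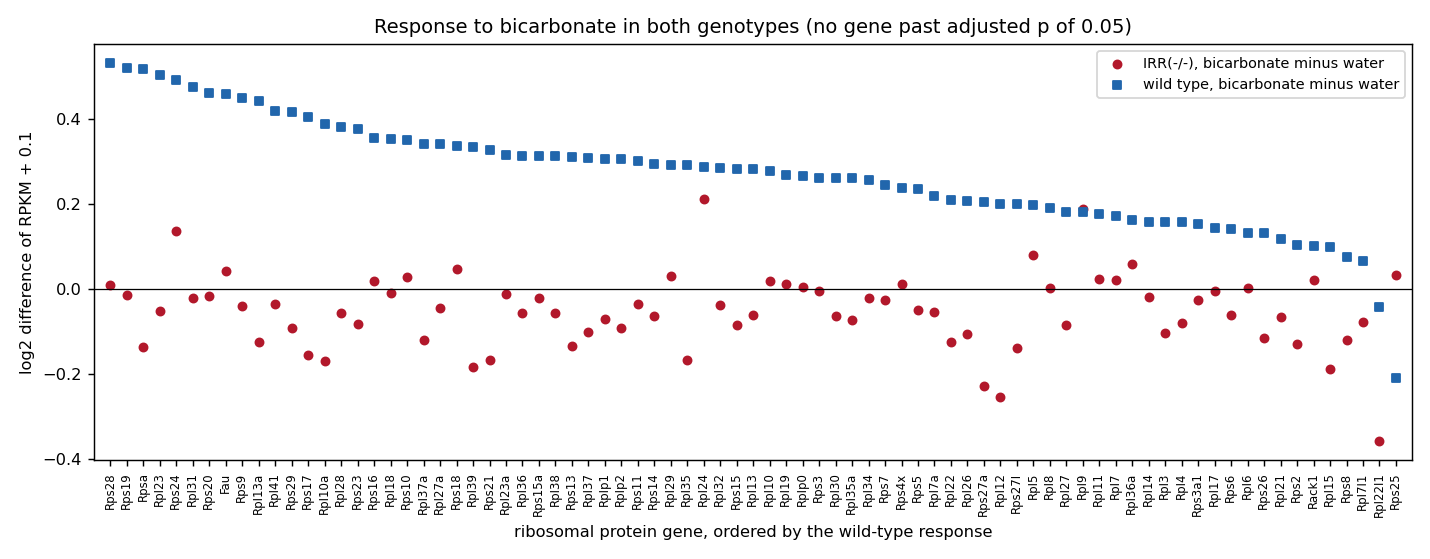
Log2 difference of RPKM + 0.1 between bicarbonate and water for 79 of the 80 genes, ordered by the wild-type response, as red circles in IRR(-/-) and blue squares in wild type. The wild-type points are above 0 for 77 of the genes plotted, while the IRR(-/-) points lie on both sides of 0. Over the 80 genes their median is -0.05, which turns to 0.03 after quantile normalization and 0.01 without the length and GC trend. No gene passed an adjusted p of 0.05 in either genotype.

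The machinery that makes ribosomes was listed beside the ribosomal proteins. For each list here, the share of all genes called is 10.1% higher and 11.8% lower on water, and 9.03% and 9.36% on bicarbonate. Of 15 tested genes of RNA polymerase I and its factors, which transcribe ribosomal RNA, 1 was higher and 2 were lower in IRR(-/-) on water, with a median log2 difference of -0.18. That is 20% called, near the 21.9% of all genes. The polymerase subunit gene Polr1c was lower by -0.44 on water (adjusted p = 0.0324) and by -0.82 on bicarbonate (adjusted p = 0.000776). Znrd1, which encodes a small subunit of the polymerase, was higher by 0.46 on water (adjusted p = 0.000831) and by 0.35 on bicarbonate (adjusted p = 0.00779). Of 38 ribosome biogenesis factors, 6 were higher and 1 was lower on water (18.4% called), with a median of -0.07, and 4 were higher and 4 lower on bicarbonate, with a median of -0.20. Nop10, a protein of the particles that pseudouridylate ribosomal RNA, was higher by 1.09 on water (adjusted p = 1.49e-06) and by 0.70 on bicarbonate (adjusted p = 0.000117). Eif6, which keeps 60S subunits from joining 40S subunits, averaged 63.6 RPKM in IRR(-/-) and 22.1 RPKM in wild type on water, a log2 difference of 1.54 (adjusted p = 2.4e-05).

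Of 32 initiation factors, 6 were higher and 7 lower on water, which is 40.6% called against 21.9% of all genes. On bicarbonate the counts were 2 and 8, or 31.2% against 18.4% of all genes. Eif5, which triggers GTP hydrolysis at the start codon, averaged 4.54 RPKM in IRR(-/-) and 25.8 RPKM in wild type on water, a log2 difference of -2.50 (adjusted p = 1.9e-05). On bicarbonate its difference was -1.72 (adjusted p = 0.000564). Eif3k, a subunit of the initiation factor eIF3, was higher by 0.83 on water and by 0.59 on bicarbonate. Of 9 elongation and termination factors, 1 was higher and 2 lower on water. On bicarbonate these counts were 2 and 4. Eef1a1, which delivers aminoacyl-tRNA, averaged 4609 RPKM in IRR(-/-) and 2922 RPKM in wild type on water, a log2 difference of 0.66 (adjusted p = 0.000311). Eef1g, a subunit of its exchange factor, was lower by -0.53 on water (adjusted p = 0.00239).

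Other mRNAs known for a 5′ TOP tract gave 2 higher and 1 lower of 9 tested on water, with a median of -0.16, and 1 higher and 3 lower on bicarbonate, with a median of -0.23. Cct4, a subunit of the cytosolic chaperonin, was lower by -0.50 on water and by -0.51 on bicarbonate. Tpt1, a small calcium-binding protein, did not pass on water (-0.22, adjusted p = 0.116) and was lower by -0.57 on bicarbonate (adjusted p = 0.000962). In wild type, the difference between bicarbonate and water was positive for 9 of these 9, with a median of 0.12 and no gene past the test. In the mTORC1 and LARP1 list, 4 of 16 were higher and 1 was lower on water. Rheb, the GTPase that activates mTORC1, was lower by -0.74 on water and by -0.68 on bicarbonate (adjusted p = 0.000117 and 0.000336). Lamtor1, which anchors mTORC1 regulators to the lysosome, was higher by 0.75 on water and by 0.55 on bicarbonate (adjusted p = 0.000133 and 0.00178). The 6 ribosomal protein or related genes that the symbol rule leaves out gave 3 higher and 0 lower on water, led by Rps27rt at 0.88 and Rpl36al at 0.66.

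A pair of lists of short nuclear-encoded mRNAs for mitochondria stood beside these. Of 77 mitochondrial ribosomal protein genes, 22 were higher and 9 lower on water, with a median of 0.08, where 10.1% of all genes were higher and 11.8% lower. Mrps18c averaged 136 RPKM in IRR(-/-) and 27.4 RPKM in wild type on water, a log2 difference of 2.30, and Mrps36 was higher by 1.17. Of 73 nuclear genes for respiratory chain subunits, 44 were higher and 8 lower on water, with a median of 0.45, counts near those of the cytosolic ribosomal protein genes (44 and 11 of 80). Ndufa1, of complex I, was higher by 1.13 and Atp5g3, of the ATP synthase, by 0.94. In wild type, bicarbonate minus water had a median of 0.01 in the mitochondrial ribosomal list and of 0.04 in the respiratory list, against 0.28 in the cytosolic ribosomal protein genes. In IRR(-/-), bicarbonate minus water was negative for 70 of 73 respiratory genes, with a median of -0.17, and for 58 of 80 cytosolic ribosomal protein genes, with a median of -0.05. The interaction was negative for 64 of 73 respiratory genes, with a median of -0.21 and 19 at an unadjusted p under 0.05, and for 50 of 77 mitochondrial ribosomal genes, with a median of -0.07 and 12 at that p. A negative interaction was therefore also present in the respiratory list. These medians are descriptions, and their differences were not tested.

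Cell type markers were set beside the genotype result. Of 47 markers tested in 10 lists, 10 were called on water and 9 on bicarbonate, and none was at 0 in any library. Of all genes tested, 21.9% were called on water and 18.4% on bicarbonate, so the marker counts were near these shares. Of 8 proximal tubule markers, 4 were called on water, with Slc34a1 and Slc5a2 lower by -0.34 and -0.44 and Slc22a6 and Slc13a3 higher by 0.28 and 0.29. The sum of this list, led by Kap, was 10075 to 23478 RPKM in IRR(-/-) libraries and 2621 to 15259 RPKM in wild-type libraries. The 3 thick ascending limb markers summed to 868 to 1181 RPKM in IRR(-/-) libraries and 1034 to 1361 RPKM in wild-type libraries. Umod was the 1 marker of that list called, at -0.54 on water and -0.41 on bicarbonate, while Slc12a1 was at -0.15 and 0.19 and Cldn16 at 0.14 and 0.34.

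The 5 intercalated cell markers summed to 89.05 to 121 RPKM in IRR(-/-) libraries and 104 to 158 RPKM in wild-type libraries. Of these Slc26a4, the anion exchanger pendrin, was lower on water by -0.99 (adjusted p = 2.53e-05) and on bicarbonate by -1.07 (adjusted p = 1.78e-05), and the other 4 were not called. The 3 distal convoluted tubule markers summed to 203 to 262 RPKM in IRR(-/-) libraries and 201 to 228.5 RPKM in wild-type libraries, with Pvalb higher by 0.59 and 0.44. The 4 principal cell markers summed to 191 to 322 RPKM in IRR(-/-) libraries and 188 to 349 RPKM in wild-type libraries, with Avpr2 lower by -0.91 on water. The 4 podocyte markers summed to 98.3 to 116 RPKM in IRR(-/-) libraries and 103 to 112 RPKM in wild-type libraries. On bicarbonate Nphs1 was lower by -0.82 and Podxl higher by 0.22. The 5 endothelial markers summed to 173 to 196 RPKM in IRR(-/-) libraries and 161 to 202 RPKM in wild-type libraries, with none called.

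The immune list (6 of 8 markers in the table) summed to 117 to 149 RPKM in IRR(-/-) libraries and 76.1 to 121 RPKM in wild-type libraries. This sum was mostly Cd74, the 1 immune marker called (0.59 on water, adjusted p = 0.00371). The others did not pass and lay on both sides of 0. On water and bicarbonate, Lyz2 was at -0.51 and -0.53, Ptprc at -0.24 and -0.21 and C1qa at -0.055 and -0.36. Cd68 was at 0.46 and 0.49, and C1qb at 0.25 and 0.14. The 4 stromal markers summed to 37.7 to 71.1 RPKM in IRR(-/-) libraries and 43.2 to 68.4 RPKM in wild-type libraries. Of these, Col3a1 was lower by -1.01 on water and -1.03 on bicarbonate. Not called were Col1a1 at -0.14 and -0.24, Dcn at -0.07 and -0.07, and Pdgfrb at 0.28 and 0.41. The 5 blood markers summed to 234 to 2068 RPKM in IRR(-/-) libraries and 501.4 to 1572 RPKM in wild-type libraries, and on bicarbonate Hba-a2 was lower by -1.89 (adjusted p = 0.0132) and Alas2 by -1.02 (adjusted p = 0.0429). The part of cell composition in the differences of ribosomal protein genes was not tested, nor was that of the mitochondrially encoded share.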

How the data were processed

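RPKM values per gene, 1 column for each of 16 kidney libraries, were made and deposited by the authors. Per the submitters' processing notes, Salmon 1.5.2, edgeR 3.34.0 and the builds GRCm39 and mm10 were used, in roles the notes do not give. The step from reads to RPKM, the gene lengths and the strand setting are not stated in the labels or the file header. Groups came from the genotype and treatment labels, with 1 animal per library. All 13430 gene IDs matched GENCODE M21 (GRCm38), which gave symbols, positions, transcript and coding lengths and GC. The values did not resolve into whole reads, and depth is unknown.

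Genes with at least 0.5 RPKM in at least 4 libraries were tested (12943, leaving out 487). Log2(RPKM + 0.1), which understates the change of low genes, was fitted in limma 3.58.1 (R 4.3.3). It was 1 fit of 4 group means with trended, robust empirical Bayes variance and 12 residual degrees of freedom. The p-values are two-sided, and were adjusted by Benjamini-Hochberg across the whole set of genes within a comparison, with a threshold of 0.05. Near-identical copies were searched with BLAST 2.17.0.

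The genes, lists and naming rule were chosen with earlier results of these data known. The rule named up to 6 highest and 6 lowest called genes without overlap per comparison, the 4 highest and 4 lowest by level, paralogs and their partners, Rpsa, Rack1, Fau and the stalk genes, the 3 smallest p of the interaction, and 2 genes per other list. Of the 80 genes, 1 is counted in every total and is not reported singly here. The alternatives were another pseudocount, other filters, scalings, variance models and sample sets, a block on replicate number, a length and GC trend removed, and each library left out. The trend on coding length was added after seeing the data. No 2 libraries held identical values.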

Additional observations from a re-analysis of the deposited data

Results flagged for a closer look

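Among 116 sets of 4 libraries (29 measures in 4 groups), 4 had a library far from the other 3, where chance gives about 1 in 20. Replicate 1 of IRR(-/-) on water had 52.22 RPKM of Rpl22l1, against 7.48 to 12.33 in the other 3, and 141.9 RPKM of Rpl39, against 108.3 to 111.5. Replicate 1 of IRR(-/-) on bicarbonate had 118 RPKM of Rpl39, against 96.71 to 99.88, and 9.978 RPKM of Rpl22l1, against 11.23 to 11.47. Rpl39 passed the genotype test on both drinks in every fit run, with any of these libraries left out included.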

How the results depend on the processing

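Of 41 results of single named genes, 32 kept their direction and call under all alternatives run, and of 1104 values under alternatives 1082 kept both, 20 lost the call and 2 turned direction. With the trend on transcript length and GC removed, the 2 that turned were Rpl26 at -0.007458 and Rplp1 at -0.262 for genotype on water, the count lower on bicarbonate was 24, the interaction count at an unadjusted p under 0.05 was 21, and the median IRR(-/-) response was 0.01216. Quantile normalization gave 4 genes higher in the wild-type response and a median IRR(-/-) response of 0.03165. The cause of these was not tested. With 1 library left out, the wild-type response had 0 to 8 genes called higher and 32 to 62 at an unadjusted p under 0.05, and the interaction had 25 to 55 lower at that p. Genotype calls then ranged over 43 to 47 higher and 8 to 11 lower on water, and 16 to 30 higher and 12 to 17 lower on bicarbonate. With the replicate number as a block, the counts were 45 higher and 11 lower on water, 20 and 16 on bicarbonate, 0 for both drink responses and the interaction, and 53 and 42 at an unadjusted p for the wild-type response and the interaction. The labels do not say that replicate numbers pair animals: of 24 same-number pairs, 2 had a correlation of deviations over 0.1 (-0.0975 to 0.105), and 0 of 16 libraries correlated best with their own number. Depth is unknown, so what it limits could not be measured.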
